A study of Mus musculus with 80 samples.

Results

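Rab GTPases are small membrane switches, and the 55 mouse Rab genes listed in these data were followed through brain tissue, cell suspensions and sorted microglia. Members were chosen by symbol alone, as Rab, a number and at most a pair of letters, without Rab effectors and regulators. All 55 were among the 15919 genes of the sort table, and 54 were among the 16000 genes of the preparation table, where Rab44 was not listed. Rab7l1, the older symbol of Rab29, fell outside the rule and was left out. RNA was sequenced in 80 libraries, 48 in a comparison of sorting methods and 32 in a comparison of dissociation methods. Every mouse carried Cx3cr1-cre/ERT2 over wild type and NuTRAP flox over wild type, a Cre driven by the Cx3cr1 promoter with a reporter that puts eGFP on ribosomes, and received tamoxifen at 100 mg/kg daily for 5 days at about 3 months of age. Brains were taken at 5 to 8 months, from both sexes, with no group of untreated mice or of other genotype. Because Cx3cr1 is also active in other brain macrophages, the tag is not restricted to microglia by its driver.

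Each preparation gave an Input library, the RNA before pull-down, and a TRAP library, the RNA recovered on eGFP-tagged ribosomes. Tissue was homogenized brain hemispheres of 4 mice, and Cell was a papain suspension prepared at a warm temperature from the same 4 mice. The sorts were autoMACS magnetic beads against CD11b (4 mice), the Tyto cartridge sorter (5 mice), the FACSAria cytometer (4 mice), and autoMACS followed by Tyto (3 mice). Some mice gave material to more than 1 sort, and the tests treated these libraries as independent. No sorted mouse was among the mice of Tissue and Cell. In the second comparison, Cell(-)Inhib and Cell(+)Inhib were suspensions of the same 4 mice made without and with actinomycin D, triptolide and anisomycin, inhibitors of transcription and translation. Dounce was a cold mechanical suspension of 4 other mice, and Tissue2 was tissue of the same 4 mice as Tissue, so the tissue samples of the 2 comparisons are not independent animals.

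A Rab protein is loaded with GTP by an exchange factor, recruits effectors that tether, move or fuse one kind of vesicle, and is switched off by a GTPase-activating protein. A GDP dissociation inhibitor then lifts it from the membrane for another round. Each Rab marks particular compartments, so the set a cell expresses mirrors its traffic: neurons rely on Rab3 proteins at synaptic vesicles, and phagocytes on Rab5, Rab7, Rab20 and Rab32 along the path from plasma membrane to lysosome.

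Total counts ranged from 7129464 to 20168116 in the sort table and from 2471448 to 14650287 in the preparation table, where the lowest 4 were the Dounce-TRAP libraries. Levels are CPM, counts scaled to library size within each table, so levels of the 2 tables were not compared. The summed CPM of 10 microglial markers rose from 233 to 356 in Tissue-Input to 4220 to 5540 in Cell-Input and 21600 to 40100 in sorted Input, with none at 0. Over the same groups, 9 measured neuronal markers summed to 5890 to 6150, 460 to 1020 and 12.2 to 61.7 CPM. The autoMACS-Input library of mouse 72 stood apart from the other 3 of its group, with 21600 CPM of microglial markers against 33600 to 36300 and 61.7 CPM of neuronal markers against 18.3 to 20.4. Counts with and without this library are given for each result that rests on it.

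The promoters shown belong to the most unlike paralogues (Rab39 and Rab39b), the member most enriched by tissue pull-down (Rab32) and an endosomal member (Rab5a). They are the 250 bases before the transcription start in RefSeq, on GRCm38.p6, read 5′ to 3′ on the gene's strand, at chr10:10558208-10558457 (minus strand), chr9:53706233-53706482 (minus), chrX:75578232-75578481 (minus) and chr17:53478984-53479233 (plus). Capitals mark matches on either strand to GAGGAAGT, a PU.1-type site, TGACGTCA, the cAMP response element, and CACGTG, an E-box.
Rab32: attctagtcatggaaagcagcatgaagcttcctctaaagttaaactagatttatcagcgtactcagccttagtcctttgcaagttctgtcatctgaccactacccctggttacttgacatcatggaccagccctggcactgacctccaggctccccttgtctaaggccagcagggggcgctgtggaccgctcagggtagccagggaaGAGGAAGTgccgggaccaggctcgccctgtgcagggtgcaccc
Rab39: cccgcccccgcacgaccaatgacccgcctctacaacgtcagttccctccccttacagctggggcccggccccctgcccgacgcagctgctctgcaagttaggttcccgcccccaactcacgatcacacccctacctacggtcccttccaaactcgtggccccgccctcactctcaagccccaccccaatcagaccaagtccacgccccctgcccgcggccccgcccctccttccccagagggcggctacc
Rab39b: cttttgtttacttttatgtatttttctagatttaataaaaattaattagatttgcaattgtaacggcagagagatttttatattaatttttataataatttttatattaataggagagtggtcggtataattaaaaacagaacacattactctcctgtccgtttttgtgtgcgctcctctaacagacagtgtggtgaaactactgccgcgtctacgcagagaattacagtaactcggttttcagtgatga
Rab5a: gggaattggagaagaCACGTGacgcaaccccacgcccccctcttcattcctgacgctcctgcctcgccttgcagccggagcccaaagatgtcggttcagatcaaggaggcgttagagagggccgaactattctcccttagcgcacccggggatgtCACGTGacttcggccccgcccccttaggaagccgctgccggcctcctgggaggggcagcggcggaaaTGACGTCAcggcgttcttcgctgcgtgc
The Rab32 promoter holds GAGGAAGT starting 43 bases before the start, Rab5a holds TGACGTCA at 28 and CACGTG at 95 and 235 bases, and the promoters of Rab39 and Rab39b hold none of the 3. Of 27025 genes with a promoter, 2.79% hold GAGGAAGT, 1.77% TGACGTCA and 6.86% CACGTG. Of the 44 members with a promoter, 2 hold GAGGAAGT (Rab2b and Rab32), 1 holds TGACGTCA (Rab5a) and 5 hold CACGTG (Rab20, Rab21, Rab23, Rab27a and Rab5a). The motifs do not overlap one another in these windows. In all 14 motifs were searched, and the 3 shown and the promoters printed were chosen after the matches were seen, so nothing is read from them.

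Per kilobase of exon, which allows levels to be set roughly between genes, the leading Rab changed with the preparation. The length was the union of a gene's annotated exons, which can exceed the transcript expressed, so the order of genes is approximate. In Tissue-Input, Rab3a, the main Rab of synaptic vesicles, stood highest at 251.6 ± 8.75 CPM per kb (SD, n = 4), followed by Rab6b, a neuron-rich Golgi Rab, at 154.2 ± 6.06. Next came Rab2a and Rab6a at 86.2 ± 2.40 and 86.0 ± 3.07 CPM per kb, whose order lies within the spread between libraries. In Cell-Input the highest were Rab2a, which acts between ER and Golgi, at 76.98 ± 3.46 and Rab5c, an early endosome Rab, at 71.6 ± 2.79. Averaged over the 4 sorts, Rab5c led Input at 125.7 CPM per kb, ahead of Rab2a at 70.9, Rab1 (ER to Golgi) at 67.2 and Rab8b (exocytosis) at 65.4. Summed over members, the level was 4821 ± 34.6 CPM in Tissue-Input, 3170 ± 114 in Cell-Input and between 4050 and 4371 as the mean of each sorted Input group.

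**Figure D1:**
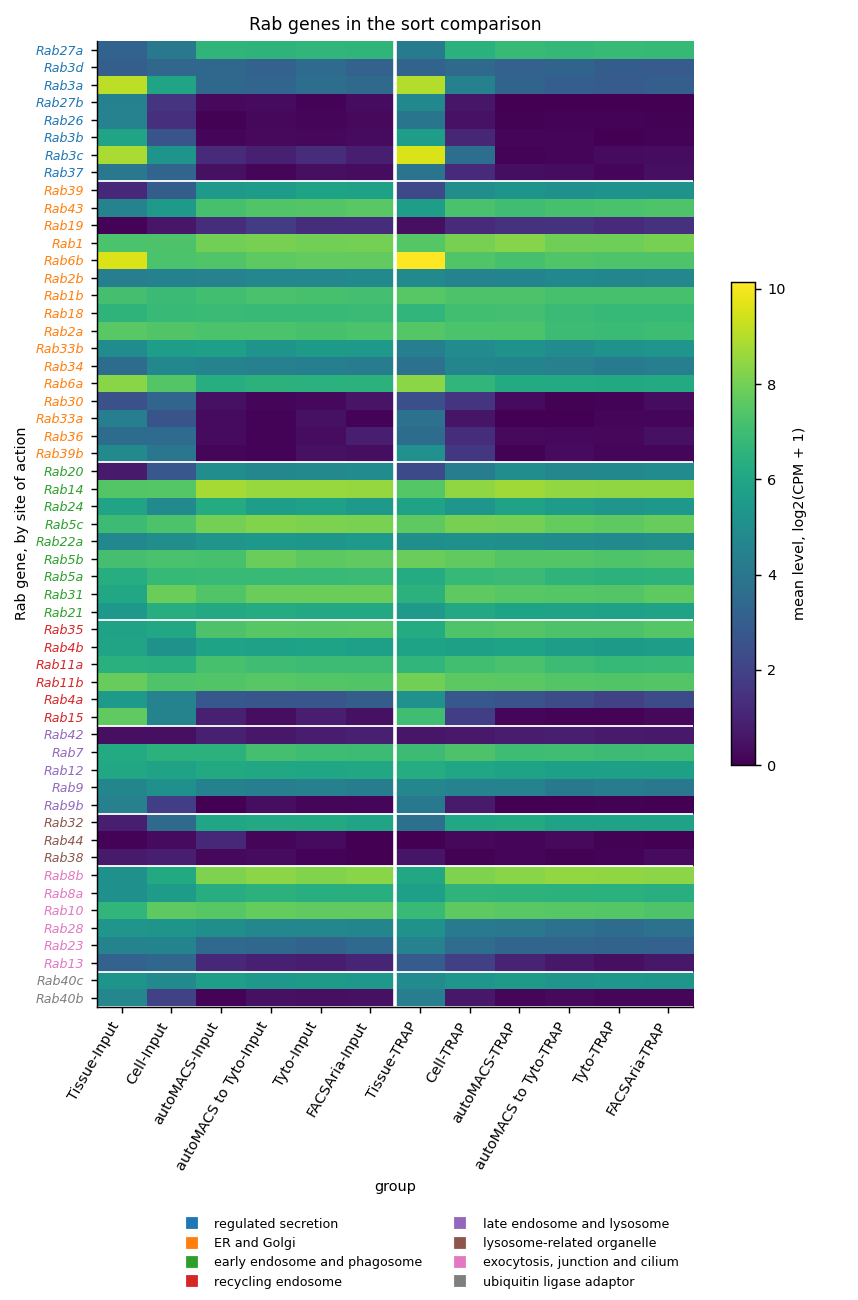
Mean level of each of the 55 Rab genes, as log2(CPM + 1), in the 12 groups of the sort comparison, with Input to the left and TRAP to the right of the white line and genes ordered by site of action. Rab3a, Rab3c and Rab6b are brightest in tissue, where Rab3a averages 560.0 CPM in Input, while Rab39, Rab32 and Rab20 are dim in Tissue-Input and bright in every sorted group.

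The first question was which Rab genes differ between sorted microglia and the whole suspension, which also holds microglia. It compared the mean of the 4 sorted Input groups with Cell-Input. The sorted mice were other animals than those of Cell, so animals and sorting cannot be told apart. Relative to the suspension, 8 Rab genes were higher and 18 lower, against 17.1% of all genes called higher and 34.7% called lower (51.8% of 15750 in either direction), so the share of members called, 47.3%, lay near that of all genes. A call here means an adjusted p below 0.1 (edgeR quasi-likelihood test, Benjamini-Hochberg over all genes) and a fold above 2. The median log2 fold change was −0.20 over members and −0.09 over all genes. The 8 genes that rose were Rab39, Rab32, Rab27a, Rab20, Rab8b, Rab43, Rab35 and Rab19, and the 18 that fell included 6 of the 8 Rabs of regulated secretion. Without the library of mouse 72, 26 were again called. In bulk RNA, fewer cells of a type and less RNA per cell cannot be told apart.

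Rab39, a Golgi and phagosome Rab, measured 5.83, 7.91, 7.64 and 6.20 CPM in the 4 Cell-Input libraries. It measured 50.9, 45.5, 26.5 and 54.3 in autoMACS, 53.4, 46.1 and 44.5 in autoMACS to Tyto, 54.9, 62.6, 50.9, 63.9 and 57.9 in Tyto and 60.03, 64.7, 50.5 and 45.8 in FACSAria. Every sorted library was above every suspension library, and the lowest sorted value was that of mouse 72. The difference was 2.66 ± 0.17 on the log2 scale (SE, adjusted p = 1.2e-12). Rab32, which directs cargo to lysosome-related organelles and to phagosomes, gave 9.27, 9.99, 10.4 and 11.3 CPM in Cell-Input. Its sorted Input values ran from 63.7 to 80.97 outside 3 lower libraries, the autoMACS library of mouse 72 at 37.1 and FACSAria libraries at 53.7 and 57.1. Groups did not overlap and the difference was 2.44 ± 0.16 (adjusted p = 1e-12).

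Rab27a, which docks secretory granules and lysosome-related organelles, rose by 2.40 ± 0.08 on the log2 scale (adjusted p = 1.2e-17). Its 4 Cell-Input values were 14.4, 16.1, 16.2 and 16.4 CPM and its sorted values ran from 88.0 to 111, with mouse 72 at 94.9. Rab20, a phagosome Rab, measured 6.16, 3.79, 6.26 and 6.90 CPM in Cell-Input and from 18.5 to 36.5 across sorted libraries. Again no sorted library fell within the suspension's range, and the difference was 2.02 ± 0.18 (adjusted p = 2.2e-10). Rab8b, of the exocytic pathway, was the most abundant of the 5, at 69.0, 72.1, 78.6 and 65.2 CPM in Cell-Input. It reached 208 in mouse 72 and 275 to 352 in the other sorted libraries, a difference of 1.89 ± 0.11 (adjusted p = 8.2e-14). Smaller rises were those of Rab43 (Golgi and ER), 1.67 ± 0.13 with adjusted p = 1.5e-11, Rab19, 1.37 ± 0.48 with adjusted p = 0.011, and Rab35 (recycling endosome), 1.19 ± 0.12 with adjusted p = 3.1e-09.

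Of the genes that fell, Rab39b, a neuronal relative of Rab39, measured 18.9, 16.1, 12.2 and 12.1 CPM in Cell-Input and 0 to 0.617 in the sorted libraries. The log2 difference was −6.37 ± 0.28 (adjusted p = 6e-16), the lowest of any member. Rab15, a recycling endosome Rab, measured 23.9, 22.6, 15.8 and 25.96 CPM in Cell-Input and 0 to 1.88 after sorting, the highest being mouse 72, with a difference of −5.68 ± 0.23 (adjusted p = 1e-16). Both genes were near 0 in every sort. Rab36 measured 11.7, 8.12, 12.0 and 10.5 CPM in Cell-Input. After sorting it lay at 0 to 0.470 in all but the FACSAria library of mouse 991, which held 2.49, and it differed by −5.57 ± 0.37 (adjusted p = 1.3e-12). Rab33a (Golgi and autophagy) had 7.83, 5.56, 3.35 and 3.97 CPM against 0 to 0.763, and Rab37 (secretory granules) 12.7, 9.19, 5.36 and 8.19 against 0 to 0.832. Neither overlapped between groups, with differences of −5.41 ± 0.40 (adjusted p = 1.2e-11) and −5.40 ± 0.42 (adjusted p = 3e-11).

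**Figure D2:**
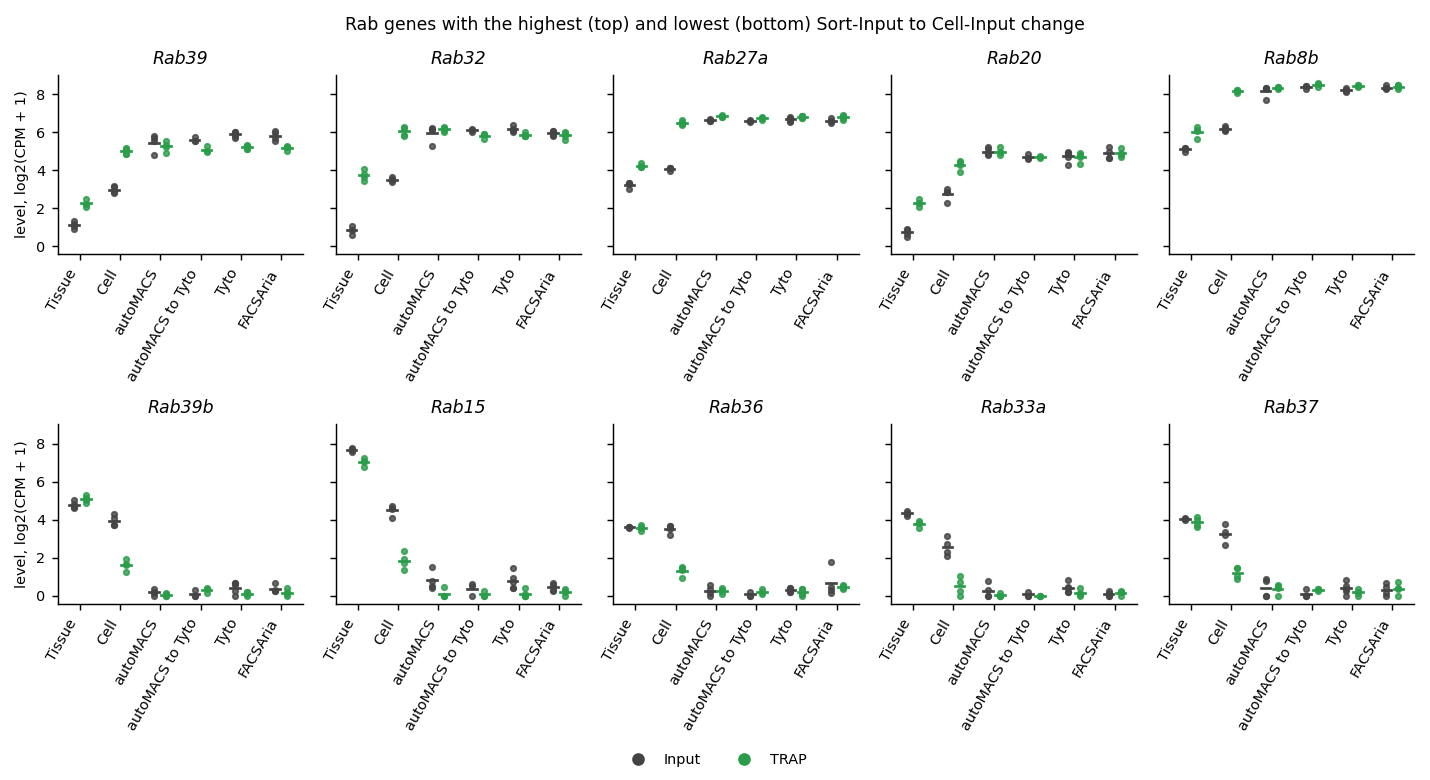
Level of the 5 Rab genes with the highest (top row) and the 5 with the lowest (bottom row) Sort-Input to Cell-Input change, as log2(CPM + 1), in each library by preparation, with Input in grey, TRAP in green and bars at the mean. In Input the genes of the top row step up from tissue to suspension to sort, while Rab39b, Rab15, Rab36, Rab33a and Rab37 approach 0 in the sorted libraries.

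By role, regulated secretion had the lowest median. Rab3a, Rab3b and Rab3c, which act at synaptic vesicles, fell by 2.80, 5.10 and 5.38 on the log2 scale, Rab26 by 3.95, Rab27b by 3.80 and Rab37 by 5.40, with −3.88 over its 8 members. Rab3d, the Rab3 of exocrine and immune granules, averaged 9.22 CPM in Cell-Input and 9.20 after sorting (log2 difference −0.24 ± 0.19, adjusted p = 0.23), and Rab27a rose. Of 16 ER and Golgi Rabs, 3 rose and 5 fell, among them Rab30 by 5.33 and Rab6a by 1.23. Of 9 early endosome and phagosome Rabs only Rab20 was called, and of 5 late endosome and lysosome Rabs only Rab9b was, lower by 5.31. Rab38, the relative of Rab32 in lysosome-related organelles, fell by 3.74, but its groups overlapped and its levels were near 1 CPM or below. Over the same libraries all 9 neuronal markers and all 16 synaptic vesicle genes fell, with medians of −6.01 and −5.93, and all 10 microglial markers rose, with a median of 2.78. Every measured marker of astrocytes, oligodendrocytes, their progenitors, endothelium, mural cells and ependyma also fell, with medians of −7.01, −7.73, −6.63, −5.25, −5.28 and −6.11. All 5 border macrophage markers rose, with a median of 2.09. The part of these markers' cells in the Rab changes was not tested.

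Few Rab genes were called between sorted groups. A test across the 4 sorts called 2 of 55 members in Input, Rab36 (adjusted p = 0.082) and Rab44 (adjusted p = 0.031), against 7.42% of all genes, and 1 of 53 in TRAP, Rab13 (adjusted p = 0.04), against 4.17%. Rab36 rested on low values, with means of 0.803 CPM in FACSAria and 0.057 to 0.246 in the other sorts, and its call was lost without any of 6 libraries, among them FACSAria mouse 991. Rab44, a Rab of mast cell granules, averaged 1.18 CPM in autoMACS and 0.0251 to 0.219 in the others. Without mouse 72 its adjusted p was 0.11, and 1 member was called in Input. Rab13, a tight-junction Rab, averaged 1.00 CPM in autoMACS-TRAP and 0.324 to 0.562 in the others, and its call was lost without autoMACS-TRAP mouse 67. At unadjusted p below 0.05, 9 members in Input (16.4%) and 19 in TRAP (35.8%) differed between sorts, beside 27% and 34% of all genes.

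The step from tissue to suspension was compared next. Of 55 members, 12 were higher and 11 lower in Cell-Input than in Tissue-Input, against 28.5% and 17.5% of all genes (46% in either direction), so the share of members called, 41.8%, lay near that of all genes. Medians were 0.15 over members and 0.17 over all genes. The number higher depended on the fit: size factors from DESeq2 gave 8 higher and 11 lower, and a fit of only these groups, with or without the mouse as a replicate block, gave 6 higher and 12 lower. Rab32 rose most, from 0.78, 1.12, 0.51 and 0.826 CPM to the 4 suspension values above, by 3.74 ± 0.23 on the log2 scale (adjusted p = 1.2e-12). Rab20 rose by 3.21 ± 0.25, Rab39 by 2.65 ± 0.23 and Rab31, which sorts cargo from Golgi to endosomes, by 1.94 ± 0.19. The genes that fell were led by Rab26, Rab3c, Rab3b, Rab27b, Rab3a and Rab15, by 3.67, 3.53, 3.40, 3.39, 3.12 and 3.11. Rab6b averaged 775.9 ± 30.5 CPM in Tissue-Input and 154.1 ± 24.3 in Cell-Input, a fall of 2.24. Rab21, Rab24, Rab27a and Rab30 lay at the threshold of fold, and each lost its call without at least 1 library. Markers of every cell type listed moved over the same libraries: those of microglia, border macrophages, endothelium, mural cells, blood, ependyma and oligodendrocytes were all called higher, with medians of 4.30, 3.81, 4.68, 3.14, 4.37, 2.52 and 2.13, as were 4 of 8 of astrocytes and 2 of 4 of oligodendrocyte progenitors, and all 9 of neurons were lower, with a median of −2.93. Their part in the Rab changes was not tested.

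The second experiment gave its own values for the same step. Cell(-)Inhib-Input had 10 members higher and 14 lower than Tissue2-Input of 54, against 25.6% and 19.1% of all genes (44.7% in either direction). Side by side with the first experiment, Rab32 rose by 3.45 ± 0.30 (adjusted p = 4.5e-09), Rab20 by 3.96 ± 0.41 and Rab39 by 2.65 ± 0.31, and Rab3c, Rab3b and Rab3a fell by 4.17, 4.14 and 3.71. Rab19 was called from 0 counts in every Tissue2-Input library and 8 to 17 counts in the suspension, so no fold is given. Mice of the suspension differed from those of the tissue in this experiment. The paper reported more biased gene body coverage in its tissue Input than in its enzymatic suspensions, and the part of this was not tested.

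In tissue, the pull-down raised 6 members and lowered none called, against 9.23% and 1.87% of all genes (11.1% in either direction). All 6 are among the 8 members higher after sorting, but the same overlap was not counted over all genes, so nothing particular to Rab genes is read from it. Rab32 measured 11.6, 9.89, 15.8 and 12.9 CPM in Tissue-TRAP against at most 1.12 in Tissue-Input, a log2 difference of 3.94 ± 0.20 (adjusted p = 1.4e-20). Rab20 followed with 2.54 ± 0.24, from 3.86, 3.19, 4.49 and 3.89 CPM in TRAP, then Rab19 with 2.16 ± 0.72, whose groups overlapped, Rab39 with 1.68 ± 0.21, Rab43 with 1.21 ± 0.11 and Rab27a with 1.08 ± 0.08. The neuronal markers summed to 5580 to 6380 CPM in Tissue-TRAP, and none of the 9 was called lower. Rab3c measured 745, 600, 758 and 925 CPM in the pull-down.

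In the suspension the pull-down called 9 members higher and 18 lower than in Cell-Input, against 16.8% and 30.9% of all genes (47.6% in either direction). Rab32 rose by 2.68 ± 0.15, Rab27a by 2.49 ± 0.08, Rab39 by 2.18 ± 0.16 and Rab8b by 2.00 ± 0.10. Rab33a, Rab15, Rab36, Rab39b and Rab37 fell by 3.52, 3.05, 2.82, 2.79 and 2.69. Rab38 was called from 0 to 3 counts in Cell-TRAP, so no fold is given. With size factors from DESeq2 the split of called members moved from 9 higher and 18 lower to 6 and 21, and the median of all genes from −0.07 to −0.48. Pull-down and sorting both had Cell-Input as their control, and each gene's 2 differences are drawn side by side.

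**Figure D3:**
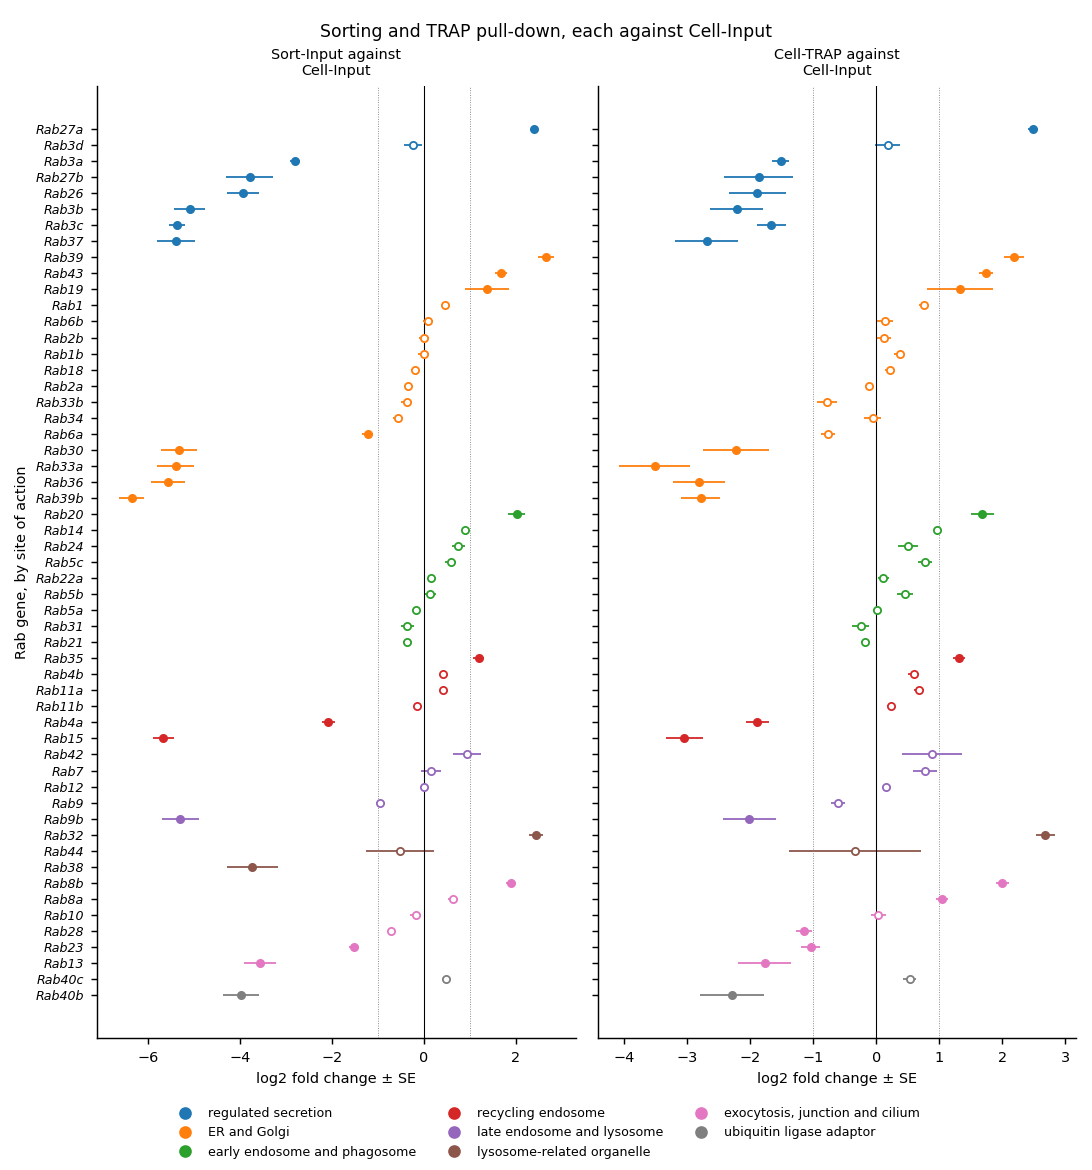
Log2 fold change with its standard error for each Rab gene, ordered by site of action, in sorted Input (left) and in Cell-TRAP (right), each against the same Cell-Input libraries. Filled points passed the test and the fold of 2 marked by dotted lines, 26 on the left and 27 on the right including Rab38, which is not drawn on the right because Cell-TRAP held at most 3 counts of it.

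From Tissue-TRAP to Cell-TRAP, 10 members rose and 18 fell of 53 tested, against 25.1% and 29.3% of all genes (54.3% in either direction). With size factors from DESeq2, 7 rose and 19 fell, and the share of called genes that were higher moved from 46.2% to 35%. Rab39 rose by 3.07 ± 0.14, Rab32 by 2.39 ± 0.13 and Rab27a by 2.33 ± 0.08, while Rab3c fell by 6.02, Rab27b by 5.65, Rab15 by 5.62 and Rab3b by 5.44. In the second experiment, Cell(-)Inhib-TRAP had 6 higher and 17 lower of 52 than Tissue2-TRAP, against 22.3% and 30.8% (53.2% in either direction), with Rab20, Rab39 and Rab8b highest at 2.91, 2.55 and 2.06 and Rab3c lowest at −6.88. Neuronal markers moved over the libraries of the first experiment, from 5580 to 6380 CPM in Tissue-TRAP to 125 to 344 in Cell-TRAP. For the second experiment the paper reported more biased gene body coverage in tissue TRAP than in suspension TRAP. The part of the markers' cells and of coverage in these results was not tested.

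With sorting before pull-down, 14 of 53 members were lower than in Cell-TRAP and none was called higher, against 23.6% and 0.836% of all genes (24.4% in either direction). Mice differed between these groups as well. Rab3c fell by 6.08 ± 0.31, Rab9b by 4.87 ± 0.58, Rab15 by 4.83 ± 0.43 and Rab39b by 4.24 ± 0.31. Averaged over the sorted TRAP groups, these genes lay at 0.0145, 0.0051, 0.021 and 0.037 CPM per kb. These levels are near background, so the sizes of the folds are uncertain. Rab27b and Rab26 were called from at most 3 counts in each sorted TRAP library, so no fold is given. The highest member of this comparison, not called, differed by 0.53. Microglial markers summed to 32000 to 34300 CPM in Cell-TRAP and 37800 to 47300 in sorted TRAP, and neuronal markers to 125 to 344 and 3.48 to 10.2.

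Within sorted microglia, TRAP and Input called 5 members, all lower in TRAP, against 18.8% of all genes lower and 0.0758% higher (18.9% in either direction). Rab28, a Rab of cilia, was the only 1 of them whose groups did not overlap. Its Input values, 21.8 to 35.9 CPM over 16 libraries, all lay above its TRAP values, 8.24 to 18.4, a difference of −1.02 ± 0.07 (adjusted p = 4.3e-16). It sat at the fold threshold, and without mouse 72 the difference was −0.98. Rab3c (0.513 to 2.90 CPM in Input and 0 to 0.685 in TRAP), Rab15 (0 to 1.88 and 0 to 0.378) and Rab33a (0 to 0.763 and 0 to 0.342) differed at levels near background, and Rab27b was at 0 or 1 count in every sorted TRAP library. Without both autoMACS libraries of mouse 72, 3 members were called, Rab28 and Rab33a losing the call. Of 16 refits that each left out a mouse's pair of libraries, Rab28 lost its call in 7 and Rab33a in 9. In a fit of the sorted groups only, 2 were called, with or without the mouse as a replicate block. Over these libraries neuronal markers summed to 12.2 to 61.7 CPM in Input and 3.48 to 10.2 in TRAP. Ependymal and choroid plexus markers summed to 10.7 to 594 and 1.5 to 56.8, and blood markers to 14.0 to 788 and 1.16 to 15.7. Microglial markers summed to 21600 to 40100 and 37800 to 47300, and border macrophage markers to 281 to 1160 and 537 to 1810. Their part in these results was not tested.

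Paralogues went separate ways within several Rab families. Rab27a rose with sorting, while Rab27b fell from 21.0 ± 2.08 CPM in Tissue-Input to 1.86 ± 0.17 in Cell-Input and 0.067 to 0.247 as the mean of each sorted group. Rab39 and Rab39b exchanged places: Tissue-Input held 1.17 CPM of Rab39 and 27.0 of Rab39b on average, and Tyto-Input 58.05 and 0.371. Rab40b, an adaptor of a ubiquitin ligase, dropped from 24.8 ± 2.05 CPM in Tissue-Input to 2.99 ± 1.29 in Cell-Input and at most 0.366 on average after sorting. Rab40c, with the same role, differed by 0.49 ± 0.09 between sorted and Cell-Input, within the fold threshold. Rab8a differed by 0.63 ± 0.11, short of the fold, beside the 1.89 of Rab8b, and Rab4b by 0.42 ± 0.07 where Rab4a fell by 2.08 ± 0.14. Rab9 differed by −0.95 ± 0.10 and Rab9b by −5.31 ± 0.40. The differences between paralogues were not tested.

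Rab6b fell from tissue to suspension and was not called between suspension and sort. It averaged 154.1 ± 24.3 CPM in Cell-Input and 164.7 to 208.3 over the sorted groups, a log2 difference of 0.09 ± 0.11 (adjusted p = 0.45) whose sign turned under other scalings. Rab6a fell at both steps, from 320.4 ± 11.4 CPM in Tissue-Input to 172.8 ± 15.3 in Cell-Input and 78.8 to 89.6 after sorting. Per kilobase, Rab6b thus lay above Rab6a in tissue, below it in Cell-Input and above it in each sorted Input group. Rab24, a Rab of autophagy, was also called lower at the first step only, with 29.5 CPM per kb in Tissue-Input, 13.7 in Cell-Input and 27.9 over the sorts.

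**Figure D4:**
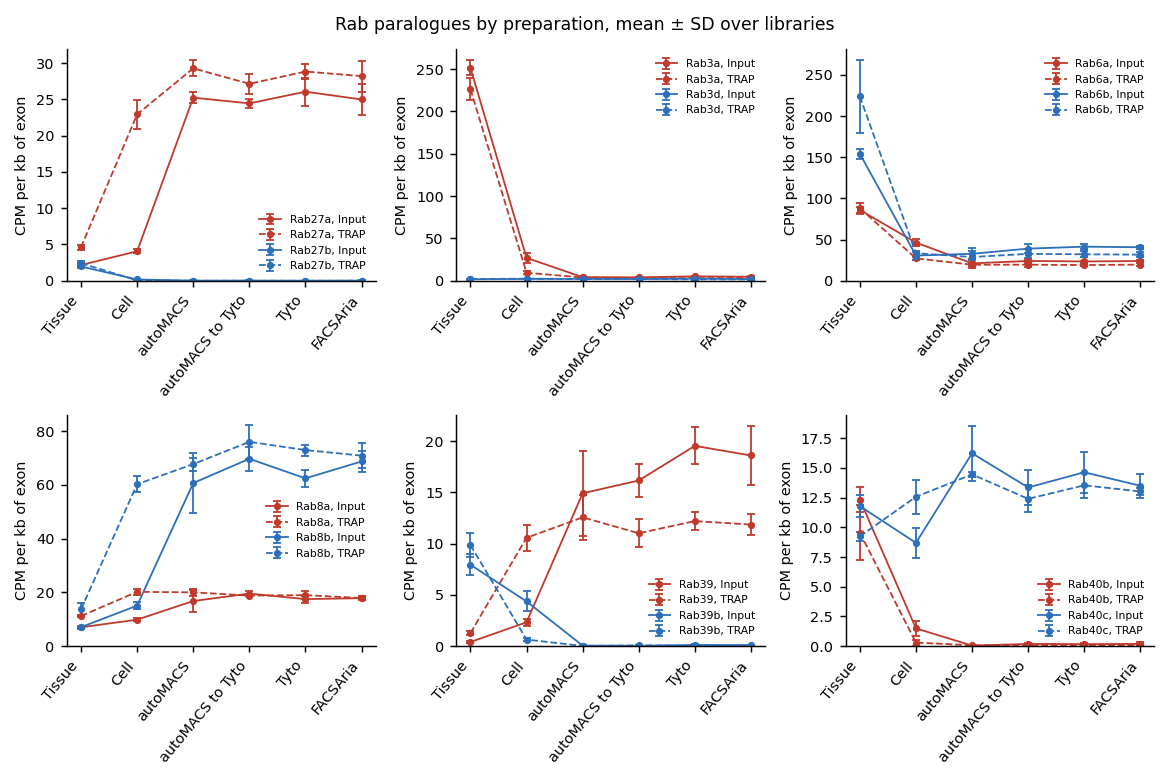
Level of 6 pairs of Rab paralogues, in CPM per kb of exon (mean ± SD over libraries), by preparation, with Input as solid and TRAP as dashed lines. In Input Rab27a, Rab8b and Rab39 rise from tissue to sort while Rab27b, Rab39b and Rab40b fall towards 0, and Rab6b falls from 154.2 CPM per kb in Tissue-Input and then stays level.

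Inhibitors of transcription and translation, added to test for changes made during dissociation, called no Rab gene. In Input 0 of 54 members passed, against 0.311% of all genes, all of them lower (0.0% higher), and in TRAP 0 of 52 passed, against 0.638% (0.00679% higher and 0.632% lower). DESeq2, limma and the fit with the mouse as a replicate block also called 0. At unadjusted p below 0.05 there were 3 members in each fraction, 5.56% in Input and 5.77% in TRAP, beside 3.38% and 8.92% of all genes. In Input these were Rab33a, 0.54 ± 0.22 on the log2 scale, Rab2b, 0.29 ± 0.13, and Rab26, −0.71 ± 0.33. In TRAP they were Rab5c, at a mean of 364 CPM with and 297 without inhibitors (0.30 ± 0.10), Rab6b (0.34 ± 0.12) and Rab6a (0.19 ± 0.09), each with an adjusted p of 0.26 or higher. The extremes of the other members were Rab9b (0.58 ± 0.29), Rab19 (−0.53 ± 0.48) and Rab24 (−0.21 ± 0.12) in Input, and Rab33a (0.87 ± 0.50), Rab4a (0.55 ± 0.26), Rab3d (0.44 ± 0.30), Rab36 (−0.92 ± 0.56) and Rab9b (−0.64 ± 0.50) in TRAP. None of these passed the test, which does not show that their levels were the same.

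Cold mechanical dissociation differed most from the warm enzymatic suspension in Input. Of 54 members, 8 were higher and 23 lower in Dounce-Input than in Cell(-)Inhib-Input, against 28.8% and 28.1% of all genes (56.8% in either direction). The median over members was −0.57, and over all genes −0.06. The fit scaled the Input libraries among themselves, and the levels over Input and TRAP together. With the scaling of the levels 8 members were higher and 25 lower, the median of all genes was −0.41, and the share of called genes that were higher moved from 50.6% to 39.4%. Mice differed between the groups, so animals and method cannot be told apart. The paper also reported lower RNA integrity, lower RNA yield and more 3′ bias in Dounce-Input than in the enzymatic suspensions. It used a whole brain for each Dounce sample. The part of RNA quality in the Rab changes was not tested. Early endosome and phagosome Rabs were lower in 7 of 9 members, with a median of −1.58, and 3 of 5 late endosome and lysosome Rabs were lower. Rab7, which governs fusion with lysosomes, measured 17.3, 15.7, 13.6 and 14.2 CPM in Dounce-Input and 89.9, 93.2, 74.1 and 92.7 in Cell(-)Inhib-Input. The groups were far apart, and the log2 difference was −2.17 ± 0.12 (adjusted p = 8.6e-12).

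Rab20 measured 0.578, 1.49, 0.312 and 1.38 CPM in Dounce-Input and 8.401, 15.2, 17.0 and 9.64 in Cell(-)Inhib-Input, −3.34 ± 0.40 on the log2 scale (adjusted p = 2.6e-07). Rab38 measured 0, 0.497, 0 and 0.276 CPM against 0.646, 2.31, 2.43 and 1.46, −2.63 ± 0.89 (adjusted p = 0.011). Rab19 and Rab42 were called from at most 3 counts in each Dounce-Input library, so no fold is given, with 8 to 17 and 5 to 7 counts in Cell(-)Inhib-Input. Widely used Rabs moved down too. Rab22a, Rab31 and Rab5c (endosomes) fell by 2.03, 1.97 and 1.89, Rab18, Rab1b, Rab1 and Rab2a (ER and Golgi) by 1.95, 1.79, 1.75 and 1.49, and Rab5a by 1.58. Rab32 fell by 1.25 and Rab35 by 1.20, and the summed level of all members was 2170 ± 149 CPM against 4052 ± 205.

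The 8 genes higher in Dounce-Input were Rab26, Rab27b, Rab3c, Rab40b, Rab40c, Rab15, Rab9b and Rab37. Rab26, a Rab of secretory granules, measured 16.02, 20.1, 13.8 and 22.2 CPM against 2.91, 3.71, 2.78 and 3.60, a difference of 2.81 ± 0.29 (adjusted p = 3.8e-08). Rab27b measured 13.0, 8.45, 8.90 and 11.2 CPM against 3.55, 1.00, 1.74 and 3.12, a difference of 2.49 ± 0.30 (adjusted p = 2.7e-07). In both the groups were apart. Rab40c reached 104, 123, 119 and 102 CPM against 29.8, 35.6, 34.1 and 29.1 (2.15 ± 0.11, adjusted p = 1.1e-12). Rab3c rose by 2.48 ± 0.23, whereas Rab3a, with means of 56.1 and 66.7 CPM, differed by 0.10 ± 0.16 in the fit (adjusted p = 0.59) and by −0.25 with the scaling of the levels, and Rab6b by 0.88 ± 0.13, short of the fold. In these libraries the neuronal markers summed to 2880 to 3220 CPM in Dounce-Input and 466 to 842 in Cell(-)Inhib-Input, 12 of 16 synaptic vesicle genes rose, and microglial markers summed to 1540 to 2410 against 5500 to 9580. In the same groups endothelial markers summed to 28.0 to 31.7 CPM against 1400 to 1800, ependymal and choroid plexus markers to 87.3 to 133 against 6800 to 10900, astrocyte markers to 1210 to 3090 against 7900 to 11300 and oligodendrocyte markers to 5720 to 6420 against 11600 to 25400, while blood markers summed to 7040 to 8120 against 3560 to 8340. Their part in the Rab changes was not tested.

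In TRAP the Dounce preparation differed less. Of 52 members 9 were higher and 1 lower than in Cell(-)Inhib-TRAP, against 20.7% and 8.02% of all genes (28.7% in either direction). Rab40b measured 13.7, 13.5, 10.9 and 11.1 CPM against 0.594, 0.333, 1.67 and 0.0871, a difference of 4.19 ± 0.44 (adjusted p = 3.4e-07). Rab26 measured 5.29, 4.84, 11.2 and 8.64 CPM against 0.742, 0.166, 0.791 and 0 (4.07 ± 0.57). Rab3c measured 50.4, 49.2, 87.7 and 74.95 CPM against 11.6, 4.24, 5.36 and 6.45 (3.23 ± 0.28). No library of these 3 genes overlapped between groups. Rab33a, Rab37 and Rab9b rose by 3.68, 3.13 and 3.07 on the log2 scale, with Dounce-TRAP ranges of 3.10 to 6.17, 3.49 to 22.9 and 2.33 to 10.3 CPM against 0.174 to 0.520, 0.582 to 2.45 and 0.615 to 0.891. The gene that fell was Rab13, by 1.67. None of the 9 early endosome Rabs was called, and microglial markers summed to 31100 to 38200 CPM against 36600 to 42200, while neuronal markers summed to 1060 to 1850 against 88.1 to 202. Endothelial markers summed to 57.4 to 75.9 CPM in Dounce-TRAP against 523 to 1170 in Cell(-)Inhib-TRAP. Ependymal and choroid plexus markers summed to 13.4 to 38.9 against 301 to 487, and mural cell markers to 5.68 to 11.7 against 14.8 to 54.2. Ranges of astrocyte, oligodendrocyte, oligodendrocyte progenitor, border macrophage and blood markers overlapped between these groups. Dounce-TRAP libraries were also the shallowest, with 2471448 to 4724538 counts. The part of these markers' cells and of depth in the Rab changes was not tested.

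**Figure D5:**
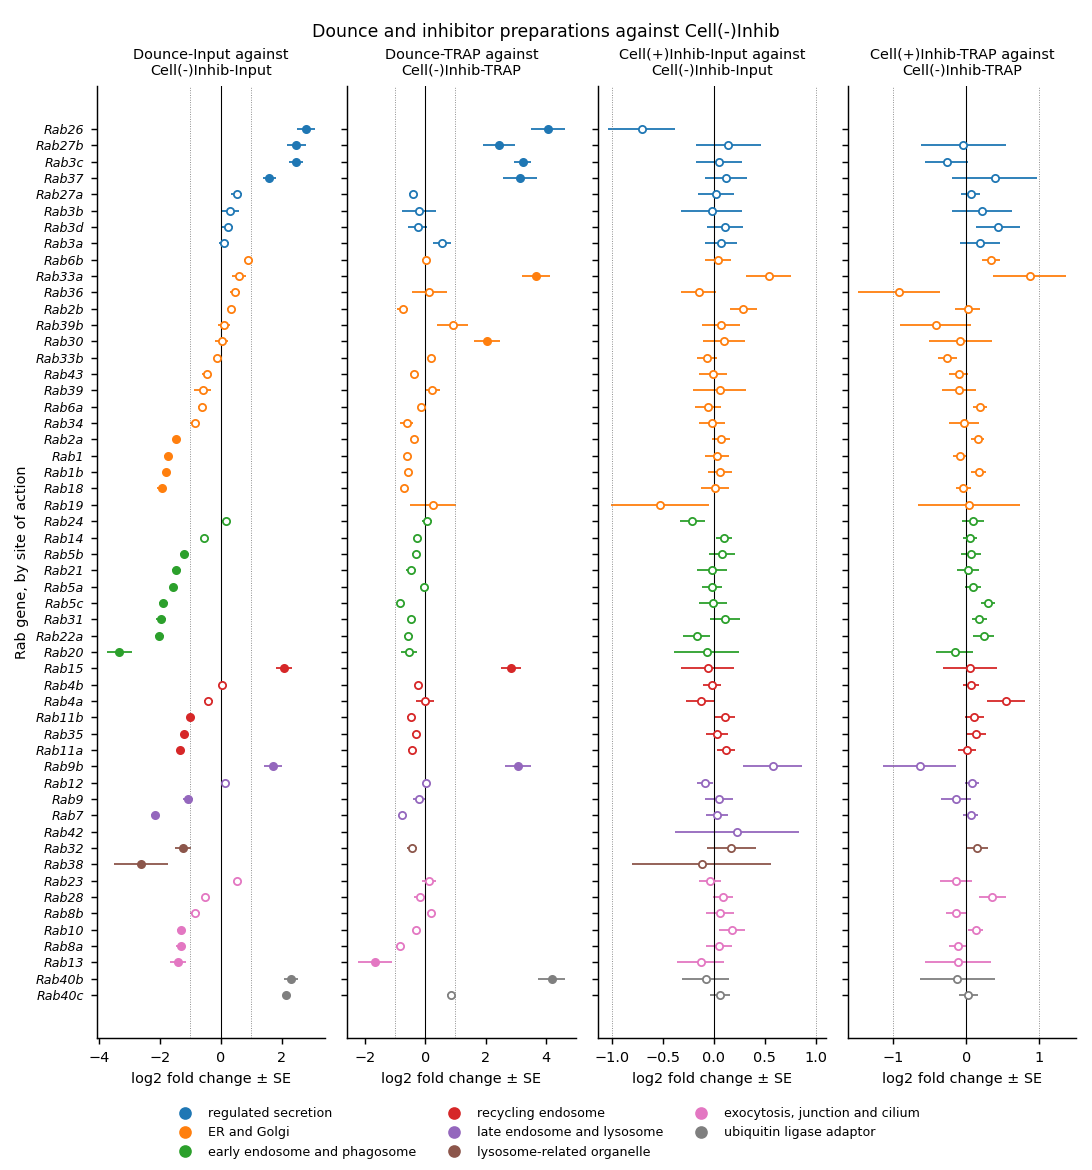
Log2 fold change with its standard error for each Rab gene in Dounce-Input, Dounce-TRAP, Cell(+)Inhib-Input and Cell(+)Inhib-TRAP, each against the Cell(-)Inhib libraries of the same fraction. Filled points passed the test and the fold of 2 (dotted lines), members with at most 3 counts in every library of an arm are not drawn (Rab19 and Rab42 in Dounce-Input), and the scales differ between panels. The 2 inhibitor panels hold no filled point.

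Genes that load, silence or read Rab proteins were described over a list of 135. Between sorted Input and Cell-Input 28 were higher and 35 lower, 20.7% and 25.9% of the list beside 17.1% and 34.7% of all genes. Of 32 exchange factors 12 rose and 5 fell, led by Rab3il1 (2.58 ± 0.12), Dennd1c (2.55 ± 0.18) and Rinl (2.44 ± 0.14), with Dennd5b (−4.00 ± 0.32) lowest. Of 59 effectors 8 rose and 24 fell. Unc13d and Mlph, which work with Rab27a at granules and melanosomes, rose by 2.42 ± 0.14 and 1.86 ± 0.17, and Rims1, Rph3a and Rims2, Rab3 effectors at synapses, changed by −7.03, −6.84 and −6.73. Of 36 GTPase-activating proteins 6 rose and 6 fell, and of 8 genes of GDP dissociation inhibitors, escorts and prenylation 2 rose, Gdi2 (1.41 ± 0.07) and Chml (1.56 ± 0.14). In Dounce-Input 33 of the 135 were higher and 28 lower than in Cell(-)Inhib-Input, 24.4% and 20.7% beside 28.8% and 28.1% of all genes. There Gdi2 fell by 1.73 and Rab3il1 by 1.95, while Dennd5b rose by 3.37.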

How the data were processed

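Poly(A)-selected, directional libraries were aligned by the authors to mm10 with Strand NGS, duplicates were removed, and reads were quantified per gene as estimated counts, of which 34.3% lay within 0.001 of a whole number in the sort table and 22.6% in the preparation table. A gene stayed in the authors' tables if some group had over 5 reads in each of its libraries, and they also deposited log2 values normalized with DESeq2 and set to the median of tissue Input. No column of another sample was left unused (0), and neither deposited table holds results of the authors' own tests that were used here.

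The deposited estimated counts were rounded and tested with edgeR 4.0.16 in R 4.3.3 (TMM, quasi-likelihood test, group as the only factor, Benjamini-Hochberg over all genes for which some group of the fit had over 5 counts in each library). Input fits used all Input libraries of a table, TRAP fits all TRAP libraries, and TRAP against Input all 48 of the sort table. The mean of the 4 sorts gave each sort the same weight. A call needed an adjusted p below 0.1 and a fold above 2, the study's thresholds. Standard errors are the log2 fold change divided by the root of its F. CPM used TMM over all libraries of a table, and levels per kilobase the exon union of the annotation (55 members). The edgeR test was tried on simulated counts with known folds, for a single comparison of each fit. The total count of each library set the precision, and no fold is given where all libraries of an arm held at most 3 counts.

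The members and lists were chosen with earlier results of these data known. Called members were named, at most 10 per direction and comparison by size of change, and the 3 highest and 3 lowest where few were called, with the paralogue sets. The 10 with single values in the sort comparison are the 5 highest and 5 lowest. Rab26 in the inhibitor TRAP comparison was left out because an arm held at most 3 counts. Libraries of 1 group are different mice. Same-numbered libraries share a mouse between Tissue and Cell, with and without inhibitors, and between TRAP and Input, and the mean correlation of their deviations ran from −0.004 to 0.301 over 7 comparisons. Alternatives were DESeq2 1.42.0, its size factors, limma 3.58.1 on the deposited log2 values, other filters on low counts, fewer groups in a fit, the replicate block, leaving out each library and, chosen after seeing the data, the scaling of the levels in each fit of Input or TRAP libraries. For TRAP against Input, both libraries of a mouse in a preparation were left out together.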

Additional observations from a re-analysis of the deposited data

Results flagged for a closer look

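Of 96 groups of 4 or 5 libraries whose single values are given for a Rab gene, 15 held 1 library far from the others by Dixon's test. Chance gives about 1 in 20 for independent normal values. Groups at or near 0 counts and libraries that recur over genes are not such values, so no excess is read from this number. The autoMACS-Input library of mouse 72 was low for Rab32 (37.1 CPM against 69.2 to 74.6) and Rab8b (208 against 304 to 322) and high for Rab3c (2.90 against 0.734 to 0.983), and it is the library whose microglial markers were low and neuronal markers high. Rab27a was low in Cell-Input mouse 946 (14.4 CPM against 16.1 to 16.4). FACSAria-Input mouse 991 was high for Rab36 (2.49 CPM against 0.10 to 0.375) and Rab27b (0.895 against 0 to 0.0938), and FACSAria-TRAP mouse 991 for Rab3c (0.685 against 0.0673 to 0.165). FACSAria-Input mouse 69 was high for Rab39b (0.602 CPM against 0.188 to 0.253). The remaining 7 were at most a few counts: Rab19 in Dounce-Input mouse 179 (0.0826 CPM), Rab42 in Dounce-Input mouse 180 (0.249), Rab27b in Tyto-TRAP mouse 69 (0.077) and Tyto-Input mouse 823 (0.268), Rab15 in autoMACS-TRAP mouse 73 (0.378) and Tyto-TRAP mouse 69 (0.308), and Rab33a in autoMACS-TRAP mouse 73 (0.108).

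For 3 Rab genes called in tissue or suspension, every mouse of the sort comparison had more in TRAP than in Input in tissue and less in the suspension. On the log2(CPM + 1) scale, Rab39b averaged 0.30 in tissue and −2.33 in the suspension, a gap of 2.63. Rab3c averaged 0.71 and −1.64, a gap of 2.36, and Rab27b 0.28 and −0.94, a gap of 1.23 from unrounded means. In Tissue2, tissue of the same mice, the averages were 0.08 for Rab39b, 0.69 for Rab3c and 0.4 for Rab27b, whose lowest mouse was at −0.01. In Cell(-)Inhib they were −2.45, −2.08 and −0.89. These differences between preparations were not tested.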

How the results depend on the processing

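Counts of called Rab genes were most sensitive to a filter of at least 10 counts in every sample, which left 37 to 47 members in the fit and removed genes near 0 in one arm. It left 11 called in Sort-Input against Cell-Input, 9 in Cell-Input against Tissue-Input, 1 in Sort-TRAP against Cell-TRAP, 12 in Cell-TRAP against Tissue-TRAP, 3 in Tissue-TRAP against Tissue-Input, 12 in Cell-TRAP against Cell-Input, 1 in Sort-TRAP against Sort-Input, 3 in Dounce-TRAP, 15 in Cell(-)Inhib-TRAP against Tissue2-TRAP and 0 in both tests across sorts. Across sorts in Input, the DESeq2 likelihood ratio test called 5, limma 1 and the fit of only these groups 1, and in TRAP the likelihood ratio test called 3. For Sort-TRAP against Sort-Input, DESeq2 size factors gave 3, limma 3 and the fit of only these groups 2. The replicate block, which pairs libraries of the same mouse in a fit of only the groups compared, gave 2 as well, and in all 7 comparisons that allow it the same number called as that fit without the block. In Cell-Input against Tissue-Input both gave 18 called, but 6 higher in place of 12. These causes were not tested.

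Leaving out 1 library gave 26 to 27 called in Sort-Input against Cell-Input, 20 to 23 in Cell-Input against Tissue-Input and 30 to 31 in Dounce-Input. In TRAP against Input each refit left out both libraries of 1 mouse in a preparation. These refits gave 25 to 28 called in Cell-TRAP against Cell-Input and 5 to 6 in Tissue-TRAP against Tissue-Input. Sort-TRAP against Sort-Input ran from 3 (without Tyto mouse 822, autoMACS mouse 72 or autoMACS to Tyto mouse 66) to 8 (without autoMACS mouse 67). The test across sorts ran from 1 (without FACSAria mouse 991, Tyto mouse 822, autoMACS to Tyto mouse 73 or autoMACS mouse 72) to 3 in Input, and from 0 (without autoMACS mouse 67) to 1 in TRAP.

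Among members named by the rule, no called value changed sign under these alternatives (0 changes), and 206 of 10178 refitted values, all of members not called, did. Of those printed, Rab6b in sorted against Cell-Input turned to −0.12 with DESeq2 or its size factors, −0.22 with the strict filter and −0.24 with limma, and Rab3a in Dounce-Input ran from −0.01 without Cell(-)Inhib-Input mouse 157 to 0.20 without mouse 156, and was −0.25 with the scaling of the levels, TMM over all libraries of a table, which was chosen after seeing the data. Rab9 in sorted against Cell-Input passed the fold with DESeq2 and its size factors (−1.16), the strict filter (−1.26), limma (−1.28) and without Cell-Input mouse 946 (−1.05). DESeq2 size factors moved the median of all genes from −0.09 to −0.30 in that comparison, and the scaling of the levels to 0.14, with 10 members called higher and 18 lower. In Dounce-TRAP limma moved the share of called genes that were higher from 72.1% to 58.6%. Low counts limit Rab19, Rab38, Rab42 and Rab44 throughout.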

Other observations

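The inventory also held 5 Rab genes that were called in none of the 15 comparisons. In the sort comparison Rab12, which acts between recycling endosomes and lysosomes, averaged from 51.5 ± 1.13 CPM (SD) in autoMACS to Tyto-TRAP (n = 3) to 76.9 ± 3.63 in Tissue-TRAP (n = 4). Rab2b, a Golgi Rab, ranged from 19.2 ± 2.25 CPM in Tissue-Input to 27.7 ± 2.83 in Tissue-TRAP, and Rab4b, of recycling endosomes, from 35.4 ± 2.96 in Cell-Input to 59.0 ± 2.55 in Tissue-Input. Rab3d lay between 6.61 ± 1.64 and 10.7 ± 2.86 CPM over the groups of the sort comparison. Rab33b, a Golgi and autophagy Rab, ranged more widely, from 19.7 ± 1.14 CPM in Tissue-TRAP to 51.9 ± 23.0 in autoMACS-Input. That group holds the library of mouse 72. The largest log2 difference of Rab33b between sorted Input groups was 0.39 with this library and 0.21 without it. In the preparation comparison the group means of Rab12 ran from 59.4 to 84.5 CPM, of Rab2b from 15.4 to 31.9, of Rab4b from 43.2 to 79.9, of Rab3d from 10.2 to 16.8 and of Rab33b from 29.0 to 73.5. They were picked for not being called, and a call also needed a fold above 2, so smaller differences are not ruled on here.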
